A study of Homo sapiens with 2 samples.

Results

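ADAR1 binding in U87MG glioblastoma cells was examined on 4 long noncoding RNAs (lncRNAs) known from the nucleus: MEG3, KCNQ1OT1, NEAT1 and MALAT1. A cluster, meaning a stretch of the genome where the authors' crosslinked reads piled up, was counted for an lncRNA when its midpoint fell inside a fixed hg19 interval of that gene and on the gene's strand. By this rule 5 of the 23782 clusters in the deposited list belonged to the 4 lncRNAs, 4 of them to MEG3 and 1 to KCNQ1OT1. NEAT1 and MALAT1 had 0.

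The list came from CLIP-seq, in which ultraviolet light links proteins to RNA before the protein is pulled down and its RNA sequenced. The series comprised 2 libraries, labelled AB1 and AB2, both from U87MG cells at passage 6, an established human glioblastoma (astrocytoma) line, with no treatment other than the irradiation named in the labels. Each was made with an ADAR1 mouse monoclonal antibody. The study's description mentions distinct antibodies, but the labels give both libraries the same catalogue entry. The 2 libraries share 1 list without tag numbers, so neither replicates nor depth stand behind the values below, and clusters of 1 transcript are not independent of each other. No RNA level was measured in these files: few molecules of an RNA and little ADAR1 on each molecule cannot be told apart. The cell line could not be checked against marker genes, since positions without levels are all the list gives.

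ADAR1 deaminates adenosines of double-stranded RNA, which turns them into inosines. In human transcripts such duplexes arise mostly where a pair of Alu repeats in opposite directions fold onto each other. NEAT1 is the scaffold of paraspeckles, nuclear bodies that have been linked to the retention of RNAs with inverted Alu repeats, and MALAT1 is an abundant RNA of nuclear speckles. KCNQ1OT1 and MEG3 are imprinted, that is, transcribed from the allele of 1 parent. KCNQ1OT1 is an unspliced RNA that runs antisense inside the potassium channel gene KCNQ1 and silences neighbouring genes in cis, and MEG3 is a spliced lncRNA of the DLK1-DIO3 region that has been described as a growth suppressor.

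Alu repeats derive from 7SL RNA, so the longest GENCODE 29 transcript of each gene was searched for stretches like RN7SL1, the 7SL RNA. KCNQ1OT1-201, a single exon of 91667 bases, held 13 such stretches, 11 in the direction of 7SL RNA (sense) and 2 against it (antisense). NEAT1-202, a single exon of 22743 bases, held 6, with 5 in sense and 1 in antisense. MALAT1-202, a single exon of 8708 bases, held 0. MEG3-220, with 7 exons and 12990 bases, held 1, in sense. For MEG3 the search covered exons alone and not the introns of its 35.0 kb interval, so its number cannot be set beside those of the single-exon transcripts, or beside clusters counted over the whole interval. Joining alignments within 50 bases instead of 150 gave 20 stretches in KCNQ1OT1-201 and 2 in MEG3-220, so the number depends on how pieces are joined. It also depends on the limit set on the match: KCNQ1OT1-201 held 10 at an E-value of 1e-08 and 14 at 0.001. The numbers of the other transcripts did not change with that limit. The shortest stretches in KCNQ1OT1-201 were 72 and 43 bases long, so a stretch need not be a whole repeat.

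The closest neighbours of opposite direction, the arrangement known to form duplexes, lay 1149 bases apart in KCNQ1OT1-201 and 542 bases apart in NEAT1-202. The antisense stretch of the KCNQ1OT1-201 pair was a weaker match (best E-value 2.26e-08) that the limit of 1e-08 drops. Without it the closest such pair lay 3860 bases apart. In NEAT1-202 the antisense stretch was only 79 bases long, with 75.9% identity. The stretches were unevenly spread. In KCNQ1OT1-201 the first 19.8 kb held none, and in NEAT1-202 all 6 lay toward the 3′ end. None of the other 7 annotated NEAT1 transcripts held a stretch. For MEG3, 4 of 48 annotated transcripts held a stretch: MEG3-220 held 1 in sense, and 3 shorter transcripts held 1 each in antisense, so the exons of the gene carry both directions, though no single transcript did. For MALAT1, 0 of 17 transcripts held one. Among all GENCODE 29 lncRNA transcripts of 8000 bases or more, the 4 described here included, 77.6% (against 21.9% of lncRNA transcripts of any length) held at least 1 stretch and 50.6% held stretches in both directions. Per length, KCNQ1OT1-201 had 1.42 stretches per 10 kb and NEAT1-202 2.64, against 3.19 over all 85 of these long transcripts. The 85 were not limited to single-exon transcripts or to 1 per gene, so they are no matched reference. The exons of MEG3-220 had 0.770, which cannot be set beside the values of the single-exon transcripts. A match describes letters only and does not show that the RNA folds there or is bound.

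**Figure D1:**
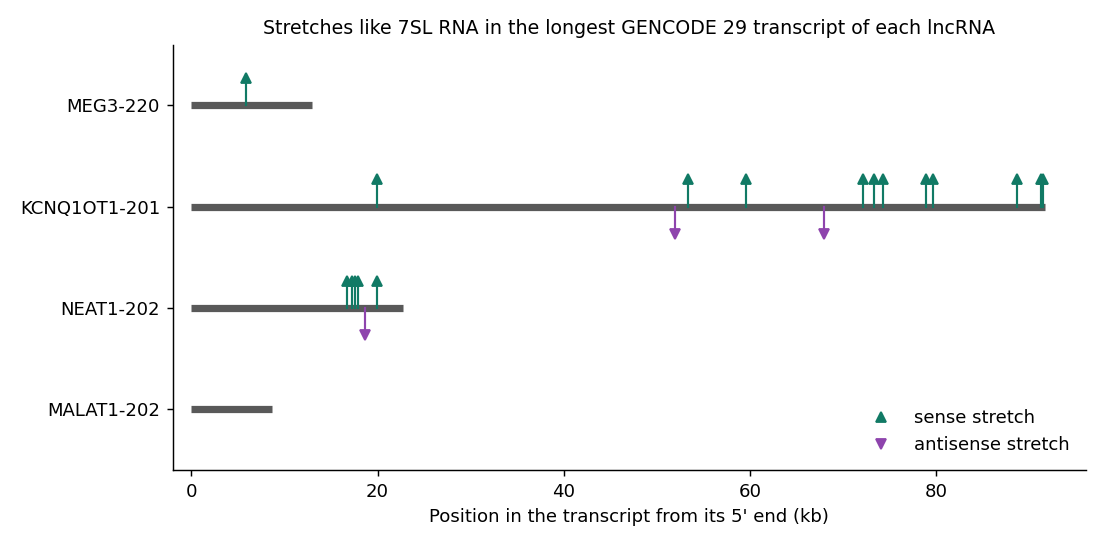
Stretches like 7SL RNA in the longest GENCODE 29 transcript of each lncRNA, by position from the 5′ end in kb. Each bar is a transcript drawn to scale, triangles above it are sense and those below it antisense stretches. KCNQ1OT1-201 has 13, NEAT1-202 has 6 toward its 3′ end, MEG3-220, whose introns are not drawn or searched, has 1 and MALAT1-202 has 0.

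MEG3 had the most clusters of the 4 lncRNAs, and none of its 4 was of the Alu class in the authors' labels. Its interval, chr14:101292400-101327400 on the plus strand, is 35.0 kb long and carried all 4 within its first 9673 bases. The first cluster, chr14:101296615-101296847, was 233 bases long and began 4215 bases into the interval. The second, chr14:101298198-101298400, was 203 bases long. The third, chr14:101300705-101300900, was 196 bases long, and the last, chr14:101301976-101302072, was 97 bases long. From the first base to the last the group spanned 5458 bases, of which 729, or 13.4%, were covered, with gaps of 1350, 2304 and 1075 bases between neighbours.

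The remaining 25.3 kb of the MEG3 interval toward the 3′ end held no cluster. The opposite strand held none anywhere in the interval. Beyond it the group stood alone: on the same strand the nearest clusters were an Alu cluster ending at 100845369, 447 kb before the interval, and another Alu cluster starting at 102243205, 916 kb after it. Counting both strands, no cluster lay within 451 kb before the first MEG3 cluster or within 941 kb after the last. The median gap between consecutive clusters of either strand over the list was 37.2 kb, but 21.1% of these gaps were 120 kb or longer. The share of gaps as long as those beside MEG3 was not counted. DLK1, before MEG3, and RTL1, after it, are the neighbouring protein-coding genes in RefSeq. Whether the clusters fall in exons or introns of MEG3 was not analysed here, because the annotation at hand is on GRCh38 and the clusters are on hg19.

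**Figure D2:**
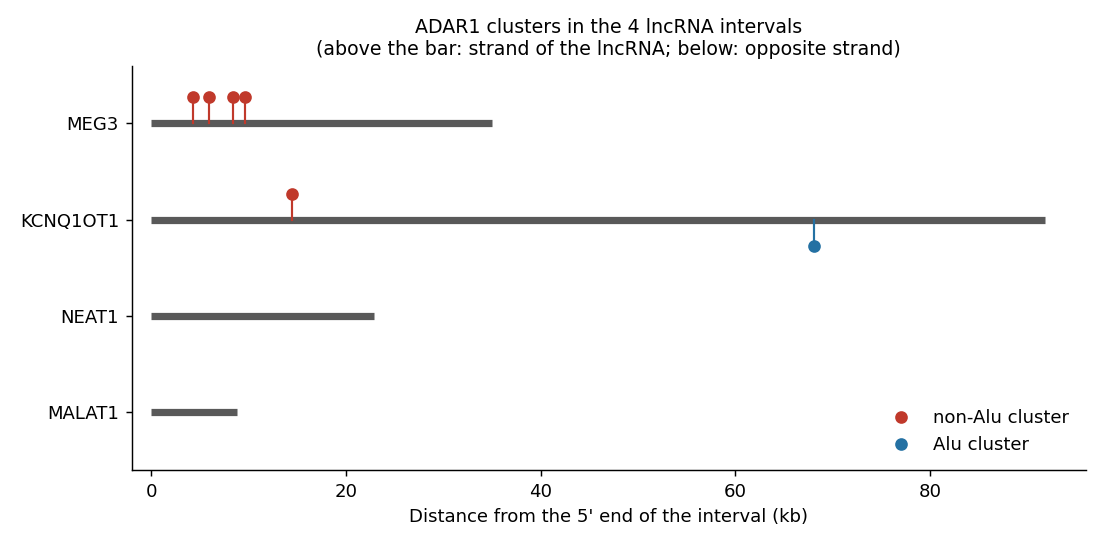
Clusters in the 4 intervals, drawn to scale as distance from the 5′ end of each interval in kb. Points above a bar lie on the strand of the lncRNA and points below on the opposite strand, red for non-Alu and blue for Alu. MEG3 has 4 non-Alu clusters between 4.2 and 9.7 kb, KCNQ1OT1 has 1 on its own strand and 1 Alu cluster on the other, and NEAT1 and MALAT1 have 0.

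To place the MEG3 number, both strands of the genome were divided into tiles as long as its interval, from the first to the last cluster of each chromosome. Of all tiles 10.2% held a cluster. Of 17229 tiles with at least 1 cluster, 301 held 4 or more, which is 1.75%, and 80 held 4 or more non-Alu clusters, which is 0.464%. Of the 301 tiles, 65 held non-Alu clusters alone, as MEG3 did (21.6%). Groups as tight as that of MEG3 made up a small share of the non-Alu class: 230 of 3582 non-Alu clusters, 6.42%, lay among 4 or more of their class on 1 strand within 5458 bases. Tiles ignore transcripts and their abundance, so these shares describe the list and test nothing.

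**Figure D3:**
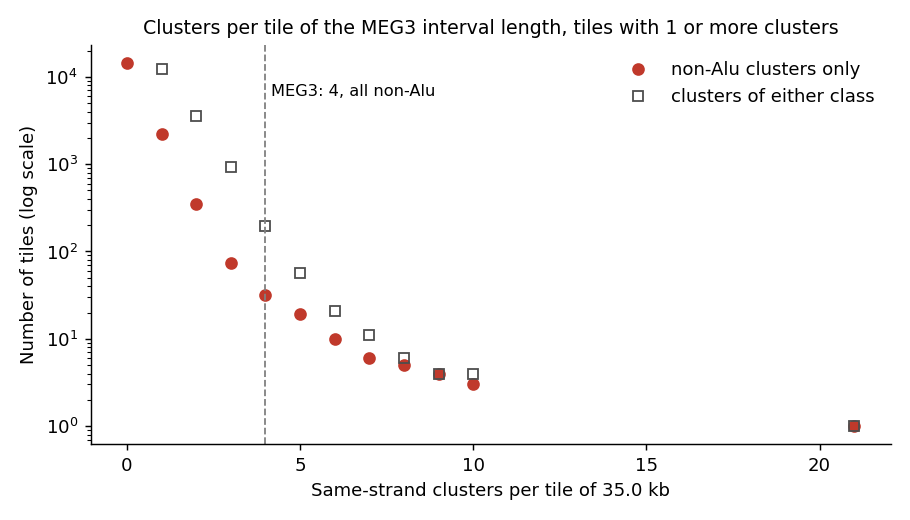
Number of tiles (log scale) against the clusters on 1 strand in each 35.0 kb tile, for the 17229 tiles with at least 1 cluster. Red points count non-Alu clusters alone, open squares clusters of either class, and the dashed line marks the 4 clusters of MEG3. At 4 clusters, 32 tiles are counted for non-Alu clusters and 198 for either class.

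KCNQ1OT1 had 1 cluster on its strand in an interval of 91.8 kb, chr11:2629500-2721300. It was non-Alu and 253 bases long, at chr11:2706691-2706943 on the minus strand, and lay 14357 bases from the 5′ end of the interval. It covered 0.276% of the interval, against 2.08% for the MEG3 clusters in theirs. Of all tiles of this length 20.2% held at least 1 cluster. Of the 6908 tiles with exactly 1, it was non-Alu in 13.0%. No Alu cluster was listed on the KCNQ1OT1 strand. Its transcript held 13 stretches like 7SL RNA (20 when joined within 50 bases). The 4 neighbouring pairs in opposite directions came from 2 antisense stretches and lay 1149 to 31777 bases apart. How often such stretches carry an Alu cluster elsewhere was not counted, so the lack of one here cannot be placed. The nearest clusters on its strand lay 324 kb from the interval on its 5′ side and 849 kb from it on its 3′ side.

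The other strand of the same interval, which is the strand of the host gene KCNQ1, carried 1 Alu cluster. This cluster, chr11:2653105-2653319 on the plus strand, was 215 bases long. Within 200 kb on either side of the interval and inside it, the minus strand had 1 cluster, the non-Alu cluster of KCNQ1OT1. The plus strand had 6 over the same region, all Alu, of 78 to 360 bases, between 2474425 and 2653319. With 1 cluster against 6 this difference in class was not tested. Most clusters of the whole list, 20200 of 23782, were also Alu.

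NEAT1 and MALAT1 shared a stretch with no cluster at all. The NEAT1 interval, chr11:65190200-65213100 on the plus strand, is 22.9 kb long, and the MALAT1 interval, chr11:65265200-65274000 on the same strand, is 8.80 kb long and begins 52.1 kb after it. From 65177888 to 65298053, over 120 kb, neither strand held a cluster. The stretch ended in an Alu cluster 12.3 kb before NEAT1, 105 bases long at chr11:65177783-65177887, and in a non-Alu cluster 24.1 kb after MALAT1, 202 bases long at chr11:65298054-65298255, both on the plus strand. Gaps of that length or more were common: they made up 21.1% of the 23758 gaps between consecutive clusters. Of all tiles as long as the NEAT1 interval 7.23% held a cluster, and of those as long as the MALAT1 interval 3.15%. Most tiles of these lengths thus held none, but tiles ignore transcripts and their abundance. They are therefore no reference for what a transcribed gene of this length would show.

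For NEAT1 and MALAT1 the empty intervals do not show that ADAR1 was absent from them. Neither the depth of the libraries nor the level of either RNA in these cells is known from the list, and the handling of reads that match several places, which bears on the 6 stretches like 7SL RNA in NEAT1, is not given in the sources used here. The part of any of these in the empty intervals was not tested.

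Taking the lncRNAs as a set, all 5 clusters were non-Alu, against 3577 of 23777 in the rest of the list. The share was 100% for the lncRNAs (exact Clopper-Pearson 95% interval 47.8 to 100%, for counting error alone), and 15.1% of the whole list. Because 4 of the 5 lie within 5458 bases of 1 gene, they are not 5 separate observations. The interval treats them as separate and is therefore too narrow, and the difference was not tested. It rests on MEG3: KCNQ1OT1 alone adds 1 cluster.

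The 5 clusters had a median length of 203 bases (range 97 to 253). The median was 192 bases in the rest of the list (range 14 to 1509) and 191 bases for all non-Alu clusters. The KCNQ1OT1 cluster was longer than 90.6% of non-Alu clusters and the first MEG3 cluster longer than 80.7%. The last MEG3 cluster was longer than 8.21% and was the only member under the median of its class. No test was made, since 5 clusters from 2 genes are not replicates.

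**Figure D4:**
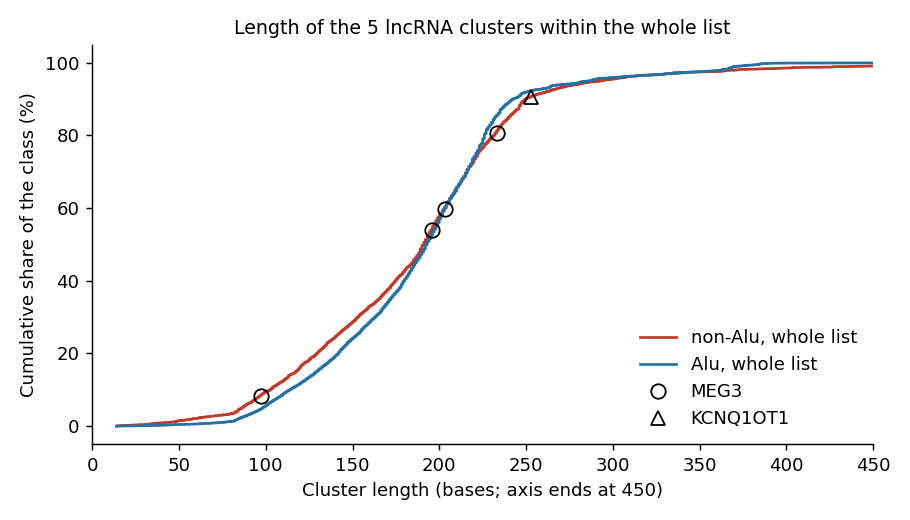
Cumulative share (%) of non-Alu clusters (red) and Alu clusters (blue) of the whole list by length in bases, with the MEG3 clusters as circles and the KCNQ1OT1 cluster as a triangle, placed at the share of non-Alu clusters that are shorter. The 5 clusters run from 97 bases, where 8.21% are shorter, to 253 bases, where 90.6% are shorter.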

How the data were processed

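ADAR1 CLIP-seq was done on 2 libraries of U87MG cells. Per the labels' protocols, PCR ran for 23 cycles and a gel step kept products of 75 to 250 bases. Per the submitters' processing notes, cutadapt 1.1, Novoalign 2.08.22 and build hg19 were used. The authors deposited 1 list of cluster coordinates with strand and class and no other measurement. Not given in the sources used here: the cluster caller, its thresholds and the way the libraries were combined. Starts were read as counted from 0 and are printed from 1.

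Members and lists were chosen with earlier results of these data known. The named items are all 4 lncRNAs with every cluster and the nearest cluster of their strand on each side. No library comparison or test over samples was possible. Other lncRNAs and paraspeckle proteins, meant for an annotation of the build of the files, were not analysed here, nor was the sequence of any cluster. The letters of the stretches like 7SL RNA are not reported here.

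Coordinates were handled with Python 3.11.15, pandas 2.3.3 and numpy 2.4.6, and the exact interval with scipy 1.17.1. Transcripts from GENCODE 29 were aligned to RN7SL1 with blastn 2.17.0 (word size 7, search space 25000000, no low-complexity filter). Alignments of 1 direction within 150 bases were joined, and a stretch was kept when its best E-value was at most 1e-05. This search was chosen after the clusters were seen. Neighbouring genes were named from RefSeq on GRCh38. The counting was checked on planted clusters, and the search on 7SL pieces with changed letters but no gaps, set in random sequence. That check does not show how well gapped or more diverged copies are found.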

Additional observations from a re-analysis of the deposited data

How the results depend on the processing

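Of 50 alternative values, 46 stayed within 1.5 times the value reported or, for the non-Alu share and the median length, within the interval or at the same value. Many of the 46 could not have moved, so their number is no measure of robustness. MEG3 kept 4 clusters whether any overlap, full inclusion, both strands, an interval wider by 1000 bases or merging within 50 bases was used, and had 3 when only clusters of at least the median length, 192 bases, were used. Apart from the length limit, none of these settings could change the MEG3 number. Its smallest gap was 1075 bases, and no other cluster lay within 447 kb of the interval. NEAT1 and MALAT1 stayed at 0 in each setting, by construction, as the nearest clusters lay 12.3 kb from NEAT1 and 24.1 kb from MALAT1. Counting both strands gave KCNQ1OT1 2 clusters, the second being the Alu cluster on the KCNQ1 strand. Over all tiles instead of tiles with a cluster, 0.178% held 4 or more clusters, by construction. Joining alignments within 50 bases split stretches like 7SL RNA, by construction, and gave 20 in KCNQ1OT1-201 and 2 in MEG3-220. The 3 alternatives of that search were chosen after seeing the data. With 1 list for both libraries no library could be left out. No paired analysis was possible because AB1 and AB2 are 1 library each and the list does not separate them.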
